A study of Mus musculus with 8 samples.

Results

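Cytosolic ribosomal proteins are the protein parts of the ribosomes that translate messenger RNA in the cytoplasm. Of the 54018 rows of the expression table, 85 met the rule for their genes: a protein-coding gene of the GENCODE M21 annotation whose symbol begins with Rpl or Rps and a digit, or is Rplp0, Rplp1, Rplp2 or Rpsa. Kinases named Rps6k and symbols with -ps, which mark pseudogenes, were left out. The 85 genes fell into 48 of the large subunit, 34 of the small subunit and 3 of the P-stalk, an arm of the large subunit that recruits the factors driving elongation. Of these, 76 encode standard ribosomal proteins and are called canonical here. The other 9 are paralogues, retrocopies or partners that carry a similar symbol: Rpl3l, Rpl7l1, Rpl10l, Rpl22l1, Rpl36al, Rpl39l, Rps27l, Rps27rt and Rps19bp1.

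The 8 libraries were made from polyadenylated RNA of splenic mononuclear cells of leukaemic C57BL/6 mice, and all 8 carry the Eµ-TCL1A transgene, a model of chronic lymphocytic leukaemia in which an immunoglobulin enhancer drives TCL1A in B cells. The 4 knockdown libraries (Kdm1aKD;Eµ-TCL1A, replicates 1, 2, 5 and 4) come from mice that also hold a doxycycline-inducible knockdown of Kdm1a, the lysine demethylase also known as LSD1, and that received doxycycline. The 4 control libraries (Eµ-TCL1A, replicates 1 to 4) lack the knockdown. Age, the cells in which the knockdown was induced, any doxycycline given to controls and the number of animals behind a library are not stated in the labels, so p-values measure only the spread between these libraries. Values of single libraries are given below in the order knockdown replicates 1, 2, 5 and 4, then control replicates 1 to 4.

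Kdm1a itself had 20.2, 21.0, 15.6 and 15.5 FPKM under knockdown, where FPKM counts fragments relative to transcript length and library total. The controls had 24.2, 21.2, 24.1 and 31.1 FPKM of it. The knockdown values all lay below the control values. Depth was 39800000 to 47200000 fragments a library, as estimated from the size of the smallest FPKM steps. At that depth and with full transcript lengths, the smallest number of fragments behind a canonical gene in any library was about 10366, a counting error of about 0.982%. The FPKM steps fitted lengths shortened by 160 to 220 bases, so for short transcripts the number is lower and the error somewhat larger. Counting error was still far below the spread between libraries. The 7 B cell markers used, among them Cd79a, Ms4a1 and Pax5, were detected in every library and summed to 1232 to 3231 FPKM in the knockdown and 3475 to 4157 FPKM in the control libraries. Knockdown replicate 4 had the lowest B cell sum and the highest erythroid sum (24450 FPKM, against 669 to 6578 FPKM in the other 7 libraries). Control replicate 4 stood apart in another way: its FPKM summed to 572660, against 671732 to 762888 in the other libraries, and its ribosomal protein values were about 46.2% of those of the other controls. The main counts are therefore given with and without these libraries, and the difference of each member described singly also without control replicate 4. Xist was at 94.9 to 175 FPKM in the 4 knockdown libraries and control replicate 1 and at most 0.128 FPKM in control replicates 2 to 4, which had Ddx3y instead, so sex and group were nearly the same split and cannot be told apart.

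Each ribosome holds 1 copy of nearly every ribosomal protein, and the P-stalk dimers are the exception. Cells make the proteins in matched amounts, and surplus unassembled protein is degraded. Their messenger RNAs are short, very abundant and begin with a terminal oligopyrimidine (TOP) tract, a C followed by a run of C and T, which the binding protein Larp1 reads downstream of the kinase mTOR to hold back or release translation. Several members are known for more than translation: Rpl5 and Rpl11 bind Mdm2 and stabilise p53 when assembly fails, Rps19 and Rps26 are mutated in Diamond-Blackfan anaemia, and RPS15 is mutated in human chronic lymphocytic leukaemia.

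A pyrimidine run near the annotated start was the most common of the sequence features searched in these genes. RefSeq start-site windows on GRCm38.p6 were found for 65 of the 85 genes. A run of at least 8 C or T on the gene's strand within 50 bases of the annotated start was present in 50 of 65 members (76.9%) and in 34.7% of the 16460 protein-coding genes of the same table. The windows below run from 25 bases before the annotated start to 20 bases from it, 5′ to 3′ on the gene's strand, with the longest pyrimidine run in capitals. Rps27 is shown as the most abundant member, Rps6 as the substrate of S6 kinase, Rpl38 and Rpl7a for runs of 10 and 21 bases, and Rplp2 and Rpl14 because they were the canonical genes that were not low in control replicate 4.
Rps27, chr3:90213629-90213673, minus strand: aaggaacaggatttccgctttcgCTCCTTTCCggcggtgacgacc
Rps6, chr4:86857348-86857392, minus strand: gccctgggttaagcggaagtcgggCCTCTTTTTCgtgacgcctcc
Rpl38, chr11:114668555-114668599, plus strand: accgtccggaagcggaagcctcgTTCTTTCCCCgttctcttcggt
Rpl7a, chr2:26910782-26910826, plus strand: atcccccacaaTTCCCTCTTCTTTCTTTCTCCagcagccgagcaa
Rplp2, chr7:141447626-141447670, plus strand: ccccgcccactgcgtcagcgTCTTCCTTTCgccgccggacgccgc
Rpl14, chr9:120571492-120571536, plus strand: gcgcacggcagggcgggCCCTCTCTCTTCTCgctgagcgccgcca
The run was 9 bases long in Rps27, 10 in Rps6, Rpl38 and Rplp2, 14 in Rpl14 and 21 in Rpl7a, and in all 6 it crossed the annotated start. The letters CCGGAAGT, the core bound by ETS factors such as Gabpa, were found on either strand of the 300-base window in 18.5% of members and 5.55% of all genes. AAGATGGC, the core of Yy1, was found in 7.69% and 3.28%, and GGGCGG, the core of Sp1, in 60% and 48.1%. TATAAA on the gene's strand in the 50 bases before the start was found in 1.54% of members and 3.41% of all genes. None of these 4 cores contains another, and a match is a description of the letters only.

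Ribosomal protein genes made up a large part of every library. The 85 genes held 18.7%, 16.6%, 18.0% and 19.8% of summed FPKM in the knockdown libraries and 19.4%, 22.2%, 21.7% and 13.1% in the control libraries. Control replicate 4 was the lowest library and control replicate 2 the highest, so the control values lay on both sides of all knockdown values. The mean share was 18.3% ± 1.36 (SD, n = 4) in the knockdown and 19.1% ± 4.17 (SD, n = 4) in the control libraries, a difference of -0.822 percentage points. Without control replicate 4 the control share was 21.1% ± 1.50 (SD, n = 3) and the difference was -2.82 points. In bulk RNA, fewer cells of a type and less RNA per cell cannot be told apart.

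**Figure D1:**
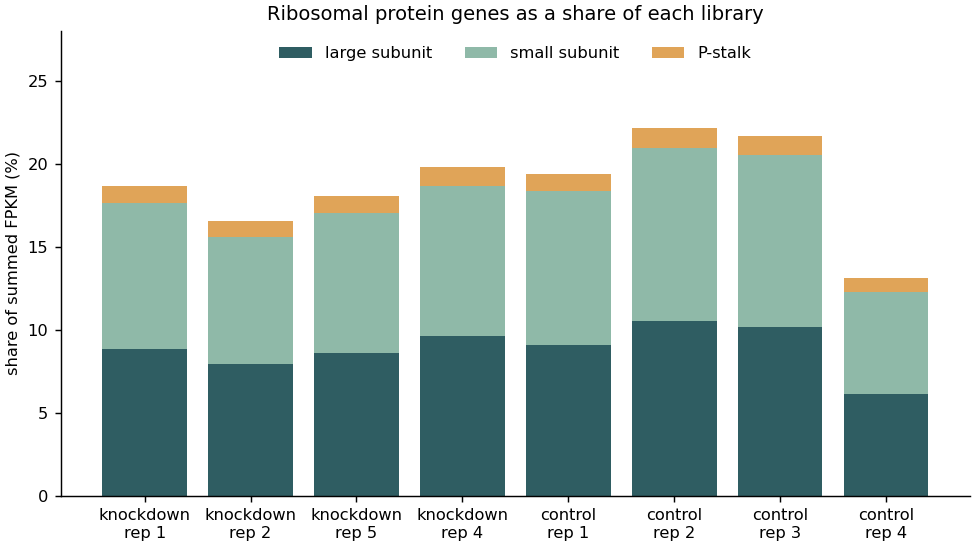
Share of summed FPKM (%) held by ribosomal protein genes in each library, stacked by large subunit, small subunit and P-stalk. The bars reach 16.6% to 19.8% in the 4 knockdown libraries, 19.4% to 22.2% in control replicates 1 to 3 and 13.1% in control replicate 4.

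Both subunits kept nearly the same balance in all libraries. The large-subunit genes summed to 6.10% to 10.5% of FPKM, the small-subunit genes to 6.16% to 10.4% and the P-stalk genes to 0.849% to 1.23%. The ratio of large to small was 1.03 ± 0.0274 (SD, n = 4) in the knockdown and 0.987 ± 0.0156 (SD, n = 4) in the control libraries, and it ranged from 0.973 to 1.06 over single libraries. Control replicate 4 had a ratio of 0.992, within that range, although its total was the lowest.

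Among the canonical genes the mean level over 8 libraries ran from 589 to 5201 FPKM, with a median of 1568 FPKM. FPKM is a value per length, so levels of different genes can be set side by side on it, with limits. For short transcripts the level depends on the length used, and for genes with near-identical copies on how shared fragments were divided. Rps27, a zinc-binding protein of the small subunit, had the highest mean, 5201 FPKM. It was followed by Rpl13a (5051 FPKM), which also takes part in an interferon-induced block on translation of some messengers. Rplp1 of the P-stalk had 3791 FPKM, Rps29, another small zinc-binding protein, 3581 FPKM and Rps24 3213 FPKM. At the low end of the canonical genes stood Rpl15 with 589 FPKM. The lowest members that passed the filter were not canonical: Rps19bp1, a nucleolar partner of Rps19 and of Sirt1, had 26.8 FPKM, Rpl7l1, a paralogue of Rpl7 in nucleolar precursors, had 45.2 FPKM, and Rps27l, a p53-induced paralogue of Rps27, had 164 FPKM. Level followed length weakly across the 76 canonical genes: Spearman's rho with coding length was -0.13, where all points share the same libraries and the length that FPKM divides by. Coding length ran from 75 bases in Rpl41 to 1257 bases in Rpl4, which lines the tunnel through which the new protein leaves.

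The genes varied together from library to library. Each gene's log2 FPKM was set against its own median over the 8 libraries, and the median of the 76 canonical genes was -0.06, -0.25, -0.07 and 0.14 in the knockdown libraries and 0.01, 0.27, 0.28 and -0.88 in the controls. Control replicates 2 and 3 were the high libraries, and between them they held the highest value of 62 of the 76 genes. Knockdown replicate 4 held the highest value of 12. Control replicate 4 held the lowest value of 72 of the 76 genes, and the 4 exceptions were Rplp2, Rpl14, Rpl9 and Rps13. Around these library medians the genes scattered with an SD of 0.09 to 0.20 in the other 7 libraries and 0.31 in control replicate 4.

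**Figure D2:**
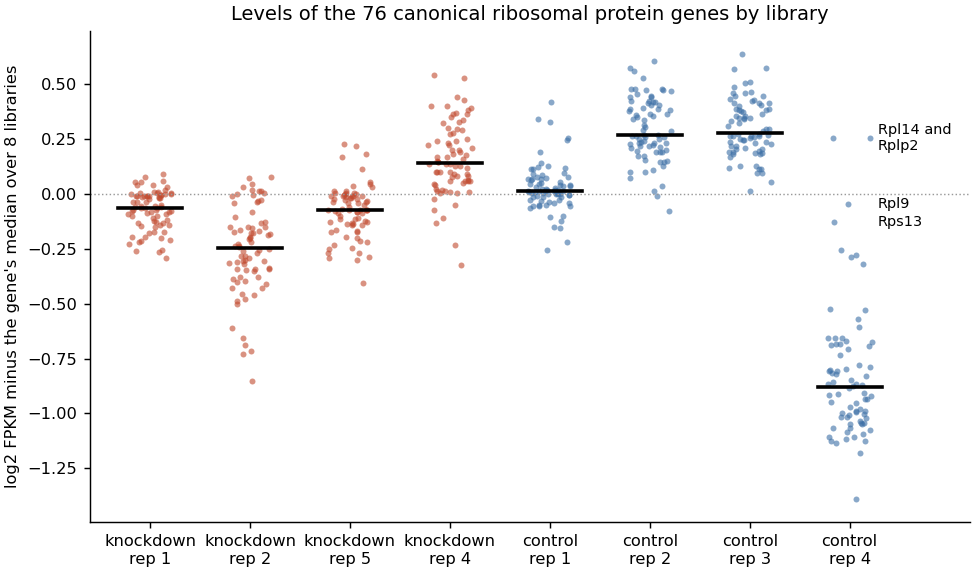
Each point is 1 of the 76 canonical genes in 1 library, as log2 FPKM minus that gene's median over the 8 libraries, and black lines are the library medians. Of the other 7 medians the lowest is -0.25 (knockdown replicate 2) and the highest 0.28 (control replicate 3), whereas control replicate 4 lies at -0.88 with Rpl14 and Rplp2 above 0.

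The first question is whether knockdown and control libraries differed in these genes. No member did by the test used: of the 82 members of at least 1 FPKM in at least 4 libraries, 0 passed an adjusted p of 0.05 in limma, higher or lower, while 1.63% of all 12890 genes tested passed as higher and 0.109% as lower. At an unadjusted limma p under 0.05 the members also gave 0 in each direction, beside 15.8% of all genes as higher and 3.41% as lower. The 2 groups of libraries were apart for 0 members, beside 11.2% (higher in knockdown) and 1.9% (lower) of all genes. The lowest adjusted p of a member in limma was 0.304, for Rpl7l1. Differences, as log2(FPKM + 1) in knockdown minus control, ran from -0.40 (Rps15a) to 0.63 (Rps27l), with a median of 0.01, beside 0.13 for all genes tested. They were positive for 46 of 82 members and for 63.7% of all genes. The SE of a member's difference was 0.164 to 0.407, and 75 of 82 intervals of 95% lay wholly within 1 log2 unit of 0. The bounds farthest from 0 were 1.46 (Rps27l) and -1.23 (Rps15a). These intervals bound the differences and do not show that the groups were alike. Some markers of minor cell types differed between the same groups. In limma 3 of 7 neutrophil markers passed (the list summed to 25 to 205 FPKM in knockdown and 67.1 to 451 FPKM in control libraries). Those 3, Camp, Ngp and Ltf, were lower in knockdown. Without passing, S100a8 and S100a9 were negative, whereas Mpo (2.05) and Elane (1.63) were positive. Of 4 megakaryocyte markers (16.7 to 48.0 and 5.32 to 12.4 FPKM) 2 passed, Pf4 and Itga2b, both higher. Gp9 was positive and Ppbp negative (-0.63), without passing. Of 3 tested progenitor markers (15.9 to 39.0 and 4.36 to 8.95 FPKM) 2 passed, Sox4 and Kit, both higher. The part of all these markers in the members' values was not tested.

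By class, the median difference was 0.03 for the 42 canonical large-subunit genes, of which 25 were positive. It was -0.00 for the 31 canonical small-subunit genes, of which 15 were positive, and -0.02 for the 3 P-stalk genes, of which 1 was positive. For the 6 tested genes outside the canonical set it was 0.16, with 5 positive. The sign of the members' median depended on the scaling. Median-of-ratios scaling moved the median of all genes from 0.13 to 0.00 and that of the members to -0.13. There 7 of 82 members were positive, beside 6494 of all 12890 genes. After quantile normalization the medians were -0.03 for all genes and 0.05 for the members. Relative to all genes the members were therefore lower under the deposited and the median-of-ratios scaling and higher under quantile normalization.

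Without control replicate 4 most members had a negative difference. That library was singled out partly by its low ribosomal protein values, so leaving it out raises the control side of these genes by construction. The members also varied together from library to library, so the counts below are not separate pieces of evidence. With 4 knockdown and 3 control libraries, 76 of 82 differences were negative, beside 39.3% of all genes, and the median was -0.25, beside 0.09 for all genes. In limma 11 members reached an unadjusted p under 0.05 as lower in knockdown, beside 3.01% of all genes, and 0 as higher, beside 12.7%. Without that library, 15 members had all 4 knockdown values below all 3 control values, beside 4.0% of all genes, and 0 had them above, beside 13.9%. They included Rpl13a, Rpl17, Rpl27a, Rpl30, Rpl34, Rpl39, Rps13, Rps15a, Rps19, Rps21, Rps24, Rps27, Rps3a1 and Rps7. In limma 0 of the 82 passed an adjusted p of 0.05, beside 0.0543% of all genes as higher and 0.00776% as lower, and the lowest adjusted p was 0.192 for Rps27. The 6 positive genes in that fit included Rps27l (0.40), Rpl7l1 (0.27), Rpl14 (0.16) and Rps19bp1 (0.15). Knockdown replicate 4 had the highest ribosomal protein share of the knockdown libraries (19.8%), so leaving it out lowers the knockdown side by construction. With knockdown replicate 4 left out as well, 78 of 82 were negative, beside 34.4% of all genes. The median was then -0.31, and 48 members had the groups apart as lower, beside 4.99% of all genes, and 0 as higher, beside 16.3%. In that fit 26 members had an unadjusted limma p under 0.05 as lower, beside 3.09% of all genes, and 0 as higher, beside 12.2%. Again 0 passed the adjusted threshold in limma, beside 0.846% of all genes as higher and 0.0853% as lower, and the lowest adjusted p was 0.121.

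**Figure D3:**
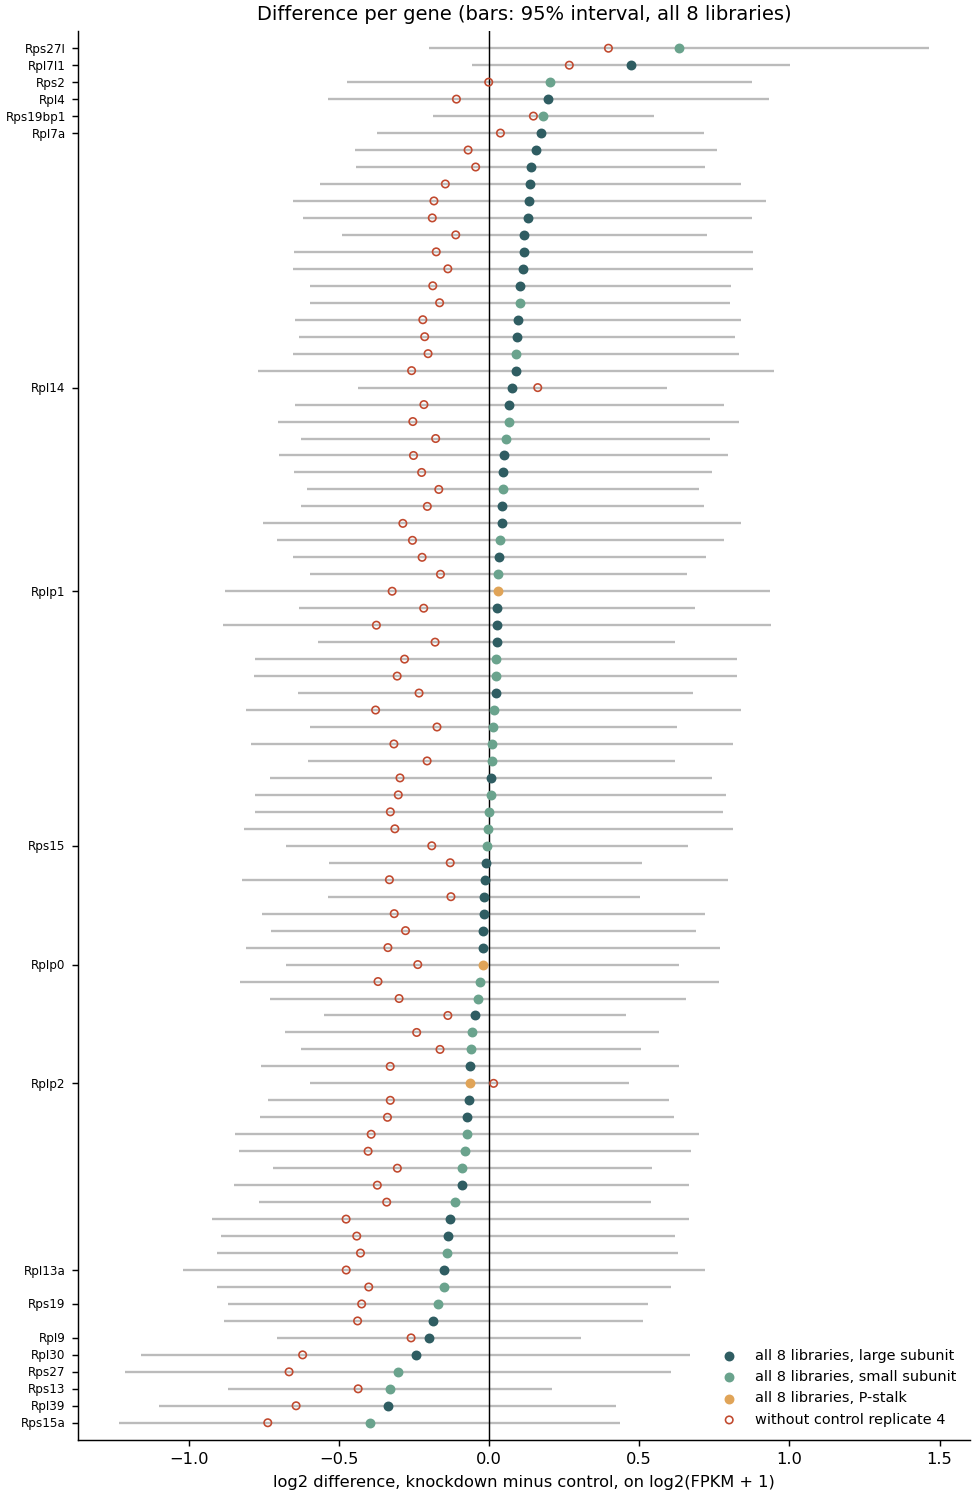
Log2 difference of each of the 82 tested genes (a selection named on the axis), knockdown minus control on log2(FPKM + 1), with filled points and 95% interval bars for all 8 libraries and open circles for the fit without control replicate 4. The filled points run from -0.40 to 0.63 around a median of 0.01, and 76 of the 82 open circles lie below 0.

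The canonical genes were not equally low in control replicate 4. Against the mean of the other 3 controls its canonical genes stood at a median of 46.2%. The lowest was Rpl37, a zinc-binding large-subunit protein, at 32.5%. Rpl14 (126%) and Rplp2 (124%) were above each of the other controls in it. Rpl9 (84.5%), Rpl28 (77.9%), Rps13 (73.7%), Rpl24 (73.3%) and Rpl27 (71.2%) were also less low. They and the genes above 100% were among 8 genes that stood more than 0.5 log2 units above the median ribosomal protein gene of that library, picked out after their values were seen. Genes that hold a small nucleolar RNA on their strand, 29 of the 76, stood at a median of 45.7%, and the other 47 at 46.8%. The 45 genes with a pyrimidine run within 50 bases of the start stood at 45.0% and the 11 without at 48.6%. A further 20 canonical genes had no window. Of the 8 genes picked out, 7 had a window, and 5 of those had the run. Across the 76 genes Spearman's rho of the percentage with transcript length was -0.07, with all points taken from the same libraries. In that library mitochondrial genome transcripts held 7.47% of summed FPKM, against 9.94% to 15.1% in the others. The mean log2(FPKM + 1) of 5 NK markers was 2.28 (3.09 to 4.57 in the others), that of 6 T cell markers 3.64 (4.25 to 5.45) and that of 6 plasma cell markers 6.82 (4.83 to 6.27). It was also the lowest library for 6 monocyte or macrophage markers (3.04, with 3.60 to 4.97 in the others) and 15 other TOP messengers (8.07, with 8.53 to 8.81). The same held for 7 genes listed with the elongation factors (8.71, with 8.96 to 9.38) and 78 mitochondrial ribosomal protein genes (4.5, with 4.93 to 5.67). The part of these in its ribosomal protein values was not tested.

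**Figure D4:**
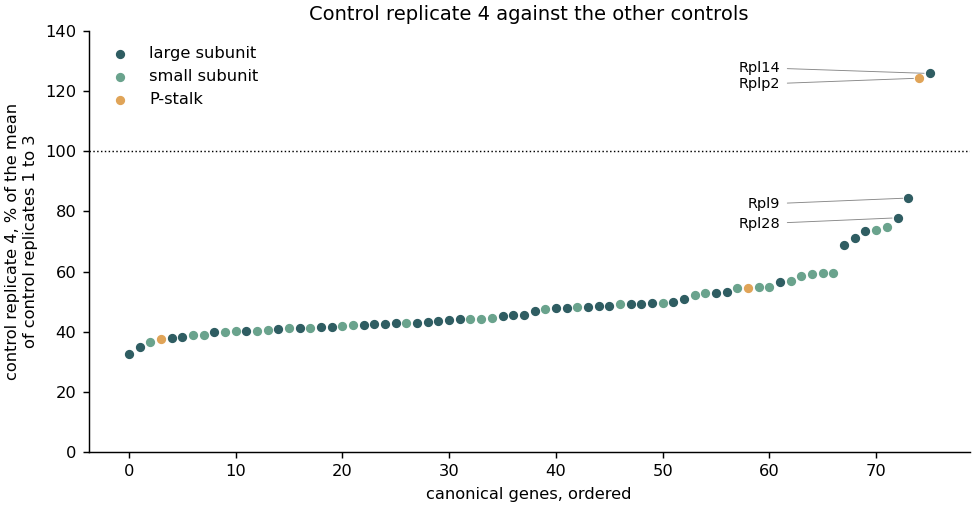
Level of each of the 76 canonical genes in control replicate 4 as a percentage of the mean of control replicates 1 to 3, in rising order and coloured by class. Most points lie near the median of 46.2%, and Rpl14 (126%) and Rplp2 (124%) lie above the dotted line at 100%.

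The spread of the controls rested on that library. The SD was a median of 33.1% of the mean over canonical genes in the 4 controls, 12.1% without control replicate 4 and 14.2% in the 4 knockdown libraries.

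The P-stalk consists of the scaffold Rplp0 and dimers of Rplp1 and Rplp2. Rplp0 had 1760, 1873, 1605 and 2122 FPKM in the knockdown and 1906, 2454, 2149 and 1185 FPKM in the control libraries. Rplp1 had 3235, 2969, 3775 and 4848 FPKM against 3767, 5116, 4900 and 1720 FPKM. Rplp2 had 1749, 1640, 1333 and 1647 FPKM against 1410, 1558, 1755 and 1957 FPKM. Control replicate 4 was thus the lowest library for the first and second of these genes and the highest for Rplp2, and the groups overlapped for all 3. The differences were -0.02 (SE 0.29) for Rplp0, 0.03 (SE 0.40) for Rplp1 and -0.06 (SE 0.24) for Rplp2. Without control replicate 4 they were -0.24, -0.32 and 0.02.

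Of the large-subunit genes, Rpl39, a very small protein in the wall of the exit tunnel, had the most negative difference. Rpl39 (chromosome X, 37082520 to 37085402, GRCm38) had 843, 589, 920 and 1039 FPKM in the knockdown and 1164, 1408, 1330 and 556 FPKM in the control libraries. Control replicates 1 to 3 were above all knockdown libraries and control replicate 4 was below them all. The difference was -0.34 (SE 0.34, adjusted p 0.601 in limma), and without control replicate 4 it was -0.64 (unadjusted p 0.0193, adjusted p 0.249 in limma). Rpl30, with 1552, 938, 1829 and 1564 FPKM against 1833, 2487, 2325 and 774 FPKM, had the same order of groups and a difference of -0.24 (SE 0.41), or -0.62 without control replicate 4 (unadjusted p 0.0433, adjusted p 0.305 in limma). Rpl9, an exception in control replicate 4, had 1497, 1398, 1501 and 1678 FPKM against 1645, 1860, 1951 and 1536 FPKM, overlapping groups and a difference of -0.20 (SE 0.23), or -0.26 without that library.

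At the positive end, Rpl7l1 had 41.8, 51.5, 57.6 and 57.8 FPKM in the knockdown and 45.0, 36.3, 48.0 and 23.8 FPKM in the control libraries. Only knockdown replicate 1 lay among the controls. Its difference was 0.47 (SE 0.24, adjusted p 0.304 in limma), and without control replicate 4 it was 0.27. Rpl4 had 1524, 1612, 1466 and 1840 FPKM against 1551, 1852, 1803 and 740 FPKM and a difference of 0.20 (SE 0.33). That value was -0.11 without control replicate 4. Rpl7a, whose start carries the longest pyrimidine run shown above, had 1222, 1208, 1107 and 1533 FPKM against 1095, 1298, 1295 and 844 FPKM, overlapping groups and a difference of 0.17 (SE 0.24), or 0.04 without control replicate 4.

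Of the small-subunit genes, Rps15a (chromosome 7, 118104372 to 118116188, GRCm38) had the most negative difference. It had 1842, 1219, 1617 and 2006 FPKM in the knockdown and 2408, 2852, 2989 and 1069 FPKM in the control libraries. As for Rpl39, control replicates 1 to 3 were above and control replicate 4 below every knockdown library. The difference was -0.40 (SE 0.37, adjusted p 0.57 in limma), and without control replicate 4 it was -0.74 (unadjusted p 0.00948, adjusted p 0.205 in limma). Rps27 had 5014, 4193, 4753 and 3894 FPKM against 6511, 7422, 7240 and 2581 FPKM, again with that order. Its difference was -0.30 (SE 0.40, adjusted p 0.699 in limma) with all libraries and -0.67 (unadjusted p 0.00774, adjusted p 0.192 in limma) without control replicate 4. Rps13 had 1248, 1252, 944 and 1138 FPKM against 1310, 1675, 1665 and 1142 FPKM and a difference of -0.33 (SE 0.24). Here control replicate 4 lay within the knockdown range, and without it the difference was -0.44.

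The most positive canonical small-subunit gene was Rps2, a protein at the channel where messenger RNA enters. Rps2 had 1096, 928, 1387 and 1722 FPKM in the knockdown and 1141, 1389, 1231 and 712 FPKM in the control libraries, with a difference of 0.20 (SE 0.30) and of -0.00 without control replicate 4. Rps19bp1 varied little, with 23.6, 28.3, 32.5 and 29.6 FPKM against 22.5, 25.3, 29.0 and 23.2 FPKM and a difference of 0.18 (SE 0.16), or 0.15 without control replicate 4. It stood at 90.4% of the other controls in control replicate 4, well above the canonical median.

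Genes with a known place in disease gave the same picture of overlapping groups. Rps15, which reaches the decoding site, had 2872, 3034, 2359 and 2908 FPKM in the knockdown and 2655, 3674, 3278 and 1900 FPKM in the control libraries. Its difference was -0.01 (95% interval -0.68 to 0.66), so its knockdown and control means of 2793 and 2877 FPKM differed by less than the SD of either group (298 and 775 FPKM). The difference was -0.19 without control replicate 4. Rps19 had 1909, 1505, 1905 and 1872 FPKM against 2060, 2646, 2538 and 1184 FPKM, and control replicates 1 to 3 were above every knockdown library. Its difference was -0.17 (SE 0.31), or -0.42 without control replicate 4. Rps26, at the channel where messenger RNA leaves, had a difference of 0.05 (SE 0.29), which turned to -0.17 without control replicate 4. Of the Mdm2-binding pair, Rpl5 had 914, 655, 945 and 1074 FPKM against 1063, 1109, 1180 and 534 FPKM. Rpl11 had 990, 820, 980 and 1144 FPKM against 1006, 1278, 1133 and 482 FPKM. Their differences were -0.07 (SE 0.31) and 0.09 (SE 0.32), and -0.34 and -0.21 without control replicate 4. Rpl10 and Rpl22, both altered in T cell leukaemia, had differences of 0.03 (SE 0.29) and 0.05 (SE 0.31), and both turned to -0.22 without that library.

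Other members studied for special roles also overlapped between groups. Rps6, the S6 kinase substrate, had 1206, 1073, 1069 and 1310 FPKM against 1199, 1309, 1528 and 737 FPKM and a difference of 0.01 (SE 0.27), or -0.21 without control replicate 4. Rpl38, known for its part in translating Hox messengers, had 1488, 1338, 1617 and 1921 FPKM against 1643, 1897, 2245 and 931 FPKM and a difference of -0.02 (SE 0.32), or -0.28 without it. Rpl13a had 5063, 4474, 4194 and 4719 FPKM against 5325, 6806, 7229 and 2594 FPKM, a difference of -0.15 (SE 0.39) that was -0.48 without control replicate 4. For Rpl3, which reaches towards the peptidyl transferase centre, the difference was 0.14 (SE 0.31). The value was -0.07 (SE 0.34) for Rps3, which lines the entry channel and also acts in DNA repair, and 0.00 (SE 0.35) for Rpsa, also described as the laminin receptor. Rps4x, one of the 4 canonical genes on chromosome X, had 0.09 (SE 0.33). Without control replicate 4 these became -0.15 for Rpl3, -0.39 for Rps3, -0.30 for Rpsa and -0.20 for Rps4x. Rps24 and Rps29, among the 5 most abundant members, had -0.14 (SE 0.34) and -0.15 (SE 0.34), and -0.43 and -0.40 without that library. Of the 35 tested members that the naming rule chose, 10 kept the sign of their difference under each of the 23 alternative settings: Rpl39, Rpl30, Rpl9, Rps15a, Rps13, Rps27 and Rps19 as negative, and Rpl7l1, Rps27l and Rps19bp1 as positive. The sign of the other 25 turned under at least 1 setting. Of the 10, all but Rps19 had been named for a difference among the most extreme of their class in these same libraries. That choice made a kept sign likely, so it is not separate support.

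Some ribosomal proteins have a second gene whose product can take the same place in the ribosome. The ratio of such a paralogue to its partner within a library does not depend on the library's total, so it was tested by itself in 3 pairs. The exact permutation test has 70 assignments and can give no p below 0.0286. Rps27l stood at 2.35%, 3.48%, 4.0% and 9.25% of Rps27 in the knockdown libraries and at 2.02%, 1.64%, 2.39% and 2.82% in the controls. The knockdown values were the higher ones except that replicate 1 lay among the controls. The log2 difference of the ratio was 0.94, with a two-sided exact permutation p of 0.0857 (0.257 after Benjamini-Hochberg adjustment over 3 pairs), so it did not pass.

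Both genes of the pair entered that ratio. Rps27l itself had 118, 146, 190 and 360 FPKM in the knockdown and 131, 122, 173 and 72.8 FPKM in the control libraries, a difference of 0.63 (SE 0.37, adjusted p 0.372 in limma). Knockdown replicate 4, the library with the most erythroid and least B cell signal, gave its highest value, and with both replicate 4 libraries left out the difference was 0.08. It was 0.40 without control replicate 4 alone.

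Rpl22l1, the paralogue of Rpl22, stood at 17.4% ± 3.05 of it in the knockdown and 18.0% ± 1.24 in the control libraries (SD, n = 4 each; exact permutation p 0.771, adjusted 0.771). Its own levels were 183, 127, 212 and 283 FPKM against 237, 216, 285 and 101 FPKM, with groups that overlapped and a difference of -0.02, or -0.34 without control replicate 4. Rpl36al, a close relative of Rpl36a, stood at 35.0% ± 3.04 and 33.2% ± 7.43 (SD, n = 4 each; exact permutation p 0.629, adjusted 0.771). Control replicate 4 was the highest library for that ratio, at 44.1%, and the other controls lay between 28.4% and 31.6%. The gene's own difference was 0.14, or -0.04 without that library.

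**Figure D5:**
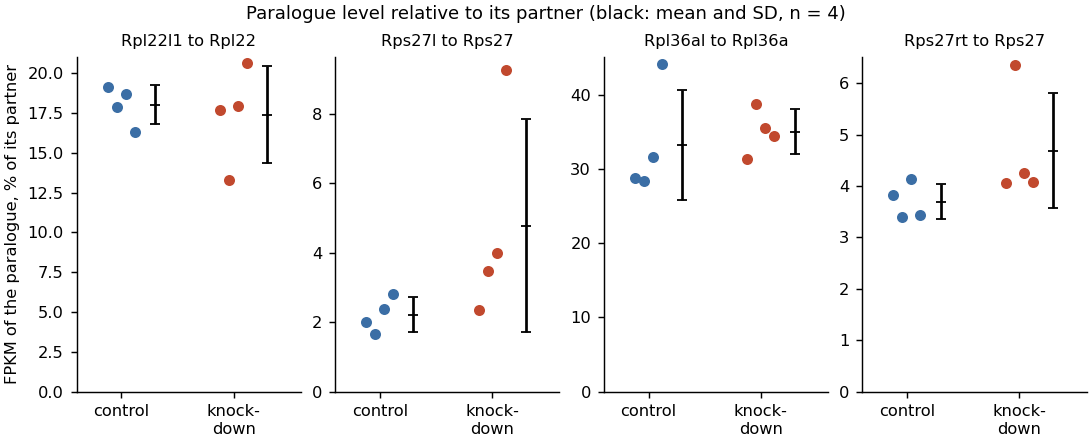
FPKM of a paralogue as a percentage of its partner in each control (blue) and knockdown (red) library, with the mean and SD of 4 libraries in black, on axes that start at 0. Rps27l lies between 1.64% and 2.82% of Rps27 in the controls and between 2.35% and 9.25% in the knockdown libraries, while the values for Rpl22l1 and Rpl36al overlap.

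Rps27rt, a retrocopy of Rps27 on chromosome 9, shows a limit of these values. The first 120 coding bases of Rps27 and its relatives are printed below from the GENCODE M21 transcripts, with capitals where Rps27l differs from Rps27.
Rps27, coding bases 1 to 120: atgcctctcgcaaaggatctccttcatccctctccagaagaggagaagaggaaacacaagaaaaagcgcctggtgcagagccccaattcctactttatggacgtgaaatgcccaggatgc
Rps27rt, coding bases 1 to 120: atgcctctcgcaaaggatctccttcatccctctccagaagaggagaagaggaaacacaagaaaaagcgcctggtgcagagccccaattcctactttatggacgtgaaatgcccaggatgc
Rps27l, coding bases 1 to 120: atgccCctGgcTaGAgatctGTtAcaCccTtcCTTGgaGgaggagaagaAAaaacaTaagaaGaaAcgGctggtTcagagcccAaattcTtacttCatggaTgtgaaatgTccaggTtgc
Rps27rt matched Rps27 at all 252 coding bases, whereas Rps27l differed at 28 of the first 120 and at 60 of 252. Fragments from the coding sequence of Rps27 and Rps27rt therefore cannot be told apart, and how the deposited values divide them is not given in the sources used here. Rps27rt was listed at 4.05%, 6.36%, 4.25% and 4.07% of Rps27 in the knockdown and 3.82%, 3.39%, 4.13% and 3.44% in the control libraries. Its difference was 0.01 (SE 0.37), or -0.38 without control replicate 4. Coding identity to the partner was 87.7% for Rpl36al, 85.0% for Rpl39l, 84.7% for Rpl10l, 73.1% for Rpl3l and 66.9% for Rpl22l1.

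The remaining paralogues were hardly present. Rpl10l, which stands in for Rpl10 in male germ cells, was listed at 0 in all 8 libraries. Rpl3l, the copy used in heart and skeletal muscle, reached 1.54 FPKM in knockdown replicate 2 and at most 0.177 FPKM elsewhere. Rpl39l, another germ cell copy, reached 0.938 FPKM in knockdown replicate 4 and at most 0.556 FPKM elsewhere. These 3 did not pass the filter and were not tested.

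Along the genome, the 76 canonical genes lie on 19 chromosomes, with 14 on chromosome 7 and 4 on chromosome X. Of these, 15 overlap a coding gene on the other strand and 1, Rpl13a, overlaps one on its own strand. These are overlaps of whole gene spans, introns included, and shared exons were not looked for. The sources used here do not state whether strand was used in counting. Whether fragments of such pairs were mixed in the values is therefore not known.

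The wider machinery around the ribosome was described with lists of genes outside the rule, and none of their genes passed an adjusted p of 0.05 in limma. Unless another setting is named, their counts below stand beside 63.7% of all genes with a positive difference and 15.8% with an unadjusted limma p under 0.05 as higher. Fau, which encodes a ribosomal protein fused to a ubiquitin-like part, had a difference of -0.12 (SE 0.28). Rack1, a scaffold on the small subunit, had 0.02 (SE 0.30). Whether any of these lists differed from the ribosomal protein genes was not tested. The 7 genes listed with the elongation factors, Eef1e1 among them by its symbol only, had a median of 0.03 with 5 positive. They were led by Eif5a (0.53, adjusted p 0.257 in limma), which relieves stalled ribosomes. Under median-of-ratios scaling their median was -0.12 with 3 positive, beside 6494 of all 12890 genes. Of 15 other TOP messengers 9 were positive with a median of 0.09, a share near that of all genes. The direction turned without control replicate 4 (5 positive, beside 7829 of all 12890 genes, median -0.11). It also turned under median-of-ratios (-0.06) and quantile scaling (-0.05). Among them were Hnrnpa1 (0.54), the nucleolar chaperone Npm1 (0.47) and Eif3f (-0.26).

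Genes that control translation of TOP messengers, such as Larp1, Mtor and Eif4ebp1, had a median of 0.20 with 10 of 14 positive, near the share of all genes. That median was 0.06 under median-of-ratios scaling and 0.01 after quantile normalization. The smallest p-values were those of Larp1b (0.61), Eif4ebp1 (0.54) and Eif4e (0.46). Of 4 tested Rps6k-type kinases 3 were positive, with a median of 0.15 that was -0.02 after quantile normalization. Transcription factors known at ribosomal protein promoters gave 6 of 9 positive, also near that share, and a median of 0.12 that was -0.02 under median-of-ratios scaling and -0.03 after quantile normalization, with 0.50 for E2f1, 0.32 for Tbp and -0.19 for Yy1.

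Assembly factors and mitochondrial ribosomal proteins had mostly positive differences, and whether they differed from the cytosolic ribosomal proteins was not tested. All 20 chaperones and late assembly factors were positive, beside 63.7% of all genes, with a median of 0.37, and 7 had an unadjusted limma p under 0.05, beside 15.8%. Without control replicate 4 that count was 3, beside 12.7% of all genes. It was 1 under median-of-ratios scaling and 1 after quantile normalization, beside 1252 and 1208 of all 12890 genes. Mrto4, which holds the place of the P-stalk during assembly, had 0.69, Heatr3, an importer of Rpl5, 0.52 and Grwd1, a chaperone of Rpl3, 0.43 (adjusted p 0.16, 0.192 and 0.222 in limma). Of 20 nucleolar factors 18 were positive with a median of 0.40, led by Ebna1bp2 (0.92), Nop56 (0.64) and Ncl (0.63). Of 78 mitochondrial ribosomal protein genes 75 were positive, beside 63.7% of all genes, with a median of 0.39, and 16 had an unadjusted limma p under 0.05, a share not far from the 15.8% of all genes. Mrps10 had the lowest adjusted p of all these lists, 0.0945 in limma, at a difference of 0.79. The small nucleolar RNA host genes, whose RNAs also start with a TOP tract in many cases, gave 6 of 7 positive and a median of 0.26, with 0.84 for Snhg5. Without control replicate 4 the medians were 0.20 for late assembly, 0.38 for the nucleolar list and 0.29 for the mitochondrial list. With knockdown replicate 4 left out too they were 0.13, 0.24 and 0.13. Under median-of-ratios scaling 17 of 20, 17 of 20 and 70 of 78 were positive, beside 6494 of all 12890 genes. Under quantile normalization 17, 16 and 69 were positive, beside 6009 of all 12890 genes. Proliferation markers (Mki67, Top2a, Pcna, Mcm2, Mcm5 and Ccnb1, all 6 detected) summed to 354 to 1045 FPKM in the knockdown and 271 to 387 FPKM in the control libraries, and their part in these values was not tested.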

How the data were processed

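Polyadenylated RNA of splenic mononuclear cells was sequenced, per the labels' protocols. The authors deposited FPKM values in 1 table of 54018 Ensembl identifiers and 8 columns, and CASAVA and Cufflinks are listed, with no role or version, per the submitters' processing notes. Not given in the sources used here: the aligner, genome build, annotation, use of strand and treatment of fragments shared by near-identical copies. Of the identifiers 53951 matched GENCODE M21 (GRCm38), which gave symbols and gene coordinates; start-site sequences are from RefSeq on GRCm38.p6. FPKM is relative to the whole library, so a value moves with the library's most abundant transcripts. Depth was recovered from FPKM steps: 95.6% to 96.6% of low values lay within 5% of whole multiples of 1 fragment, and no counts were tested.

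The 12890 genes that reached 1 FPKM in 4 or more libraries were tested on log2(FPKM + 1) with limma 3.58.1 in R 4.3.3, with a mean-variance trend and Benjamini-Hochberg adjustment over all of them. A log2 difference on this scale understates the change of low genes. Paralogue ratios were tested by exact permutation. The script was tested on simulated data. Named members were, in each class, the 3 most positive and 3 most negative (1 each for the P-stalk), the 5 highest and 5 lowest by mean FPKM, every member outside the canonical set, fixed genes of known roles, and, of each other list, up to 3 genes with the smallest p. Members, lists and rules were chosen with earlier results of these data known. Alternatives were other pseudocounts (0.1 and 5), filters, scalings and weights, covariates, a replicate block and leaving out libraries; scaling to the ribosomal protein median and sex as a covariate were added after seeing the data. A few genes that the rules name are not reported here.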

Additional observations from a re-analysis of the deposited data

Results flagged for a closer look

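In 176 groups of 4 libraries (each member whose values vary, by group, and 4 summary quantities, by group), the gap between the most extreme library and its nearest neighbour was divided by the range of the group and compared with Dixon's 95% critical value, which chance passes in about 1 in 20 groups. In all 10 groups passed it. Control replicate 4 was the low library in 3 of them: Rpl34 (857 FPKM, with 2184 to 2303 FPKM in the other controls, gap 0.9175 of the range), Rpl10 (795 FPKM, with 1503 to 1596 FPKM, gap 0.8837) and Rps3a1 (900.3 FPKM, with 2093 to 2338 FPKM, gap 0.8296). That library was also the lowest for 72 of the 76 canonical genes. Knockdown replicate 2 was the low library for Rps28 (1699 FPKM, with 2034 to 2067 FPKM in the other 3, gap 0.9096) and Rps19 (1505 FPKM, with 1872 to 1909 FPKM, gap 0.9076). Knockdown replicate 4 was the high library for Rpl29 (1046 FPKM, with 797 to 827 FPKM, gap 0.8796) and Rpl24 (1167 FPKM, with 852 to 894 FPKM, gap 0.8684). The remaining groups concern genes listed near 0. Rpl3l had a gap of 0.9183 in the knockdown libraries, from 1.54 FPKM in replicate 2, and of 1 in the controls, where control replicate 2 had 0.124 FPKM and the rest were listed at 0. Rpl39l had a gap of 0.8803 in the knockdown libraries, from 0.938 FPKM in replicate 4. A single fragment per kilobase was worth 0.0212 to 0.0251 FPKM at these depths.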

How the results depend on the processing

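The number of members past an adjusted p of 0.05 in limma was 0, higher and lower, in all 24 settings, and the lowest adjusted p was 0.0704 (Rps15a, robust fit with array weights). At an unadjusted p under 0.05, 18 settings gave 0 members and the most was 26 (both replicate 4 libraries left out). The median over members was 0.01 with all libraries, -0.25 with array weights, -0.12 with the B cell level, 0.01 with the erythroid level and -0.08 with sex as a covariate, and -0.25 to 0.13 when 1 library was left out. The share difference was -3.33 to 0.206 points over all settings, -2.82 to 0.206 points when 1 library was left out. Of all genes 224 passed with all libraries, 24 with a pseudocount of 5, 2 with no filter, 71 with a mean of at least 5 FPKM, 131 with median-of-ratios scaling, 126 with quantile normalization, 798 with array weights, 80 with the B cell level, 1276 with the erythroid level and 2 with sex as a covariate, 120 without both replicate 4 libraries, and 8 (without control replicate 4) to 333 when 1 library was left out. The causes were not tested. The log2 ratio of Rpl22l1 to Rpl22 was -0.16 to 0.0549 when 1 library was left out and reversed to 0.0549 without knockdown replicate 2. That of Rps27l to Rps27 was 0.55 to 1.21, with 1.21 without knockdown replicate 1, the only knockdown library among the controls for this ratio. Leaving that library out separates the groups fully. The unadjusted exact permutation p of 0.0286 there was the smallest possible, so no conclusion is drawn from it. Same-numbered libraries did not deviate together (correlations 0.16, 0.05 and -0.12 for replicates 1, 2 and 4), so the numbers were not taken to pair animals; with a replicate block 0 of all genes passed and the members' median was 0.13. Depth did not limit the canonical genes. It leaves Rpl3l and Rpl39l at few or no fragments in most libraries. Their highest values, 1.54 FPKM of Rpl3l in knockdown replicate 2 and 0.938 FPKM of Rpl39l in knockdown replicate 4, stand for more.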

Other observations

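Ribosomal protein genes have many processed pseudogenes, and those with -ps in the symbol were summed apart from the members. The table held 293 such rows, of which 113 were at 0 in every library. Their summed FPKM under knockdown was 1324, 1641, 1414 and 1551. Among the controls it was 1185, 1410, 1707 and 738. That was 1.06%, 1.47%, 1.13% and 1.07% of the sum of the protein-coding members in the knockdown and 0.871%, 0.856%, 1.03% and 0.983% in the control libraries. All 4 knockdown percentages lay above all 4 control percentages, whereas the sums overlapped, and neither was tested. Control replicate 4 was the lowest library for the pseudogene sum, as it was for the protein-coding genes. Knockdown replicate 2 had the highest percentage. It was also the library with the highest value for the retrocopy Rps27rt relative to Rps27 (6.36%).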
